A study of Elaeis guineensis with 18 samples.

Results

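The genes described here were the 200 oil palm genes whose transcripts were lower in cold-treated leaves than in the leaves of every other treatment. They were chosen by the measured read counts themselves. A gene was taken when its lowest normalised count in the 15 libraries outside cold was at least 20 and at least 2 times its highest normalised count in the 3 cold libraries. A normalised count is the number of reads assigned to a gene divided by the size factor of its library, which puts libraries of different depth on one scale. Of 30606 genes in the count table, 17940 had at least 20 normalised counts in all 15 libraries outside cold and 244 met the rule. The 200 with the largest ratio of the lowest other value to the highest cold value plus 1 were kept, so that "cold alone" describes the selection and is no finding.

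RNA-Seq had been done on leaves of wildtype Deli Dura (Elaeis guineensis), the thick-shelled parent type used in oil palm breeding. Seedlings that were 6 months old were acclimatised for 1 month and then treated for 2 weeks in 6 groups of 3 libraries. Each library was made from the third leaf of 3 pooled seedlings. Cold-treated seedlings were kept at 10 °C, drought-treated seedlings received no water (0 mL), salinity-treated seedlings were given 200 mL of 0.2 M NaCl and waterlogged seedlings (labelled flood) stood in water to 1 inch over the soil surface. The heat treatment was 40 °C, and the control seedlings were at 28 °C with 200 mL of water daily. Drought, salinity and waterlogging seedlings were also kept at 28 °C, and cold and heat seedlings also received 200 mL of water daily. By their labels the groups differ in treatment only and share one genetic background, with no transgene or mutant. Only one leaf age and one time point were sampled, and as bulk leaf RNA was sequenced, fewer cells of a type and less RNA per cell cannot be told apart.

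Oil palm is a tropical crop that is sensitive to chilling. In plants, the light reactions of photosynthesis take place in the thylakoid membranes of the chloroplast. There, light-harvesting proteins bind chlorophyll and pass excitation energy to photosystem I and photosystem II, and the oxygen-evolving complex of photosystem II splits water. Most of the proteins of these antennae, and the extrinsic proteins of the oxygen-evolving complex, are encoded in the nucleus, and so their transcripts appear in a leaf library of this kind.

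Library totals ran between 14839345 and 22126971 counts. The 200 genes together took 1.43% to 1.51% of the counts in the 3 cold libraries, against 4.92% to 7.02% in the other 15. These shares sum the counts by which the genes were chosen, so their lack of overlap follows from the selection. The scale on which cold is read matters for the selection: size factors were 1.31 to 1.43 in cold libraries and 0.681 to 1.14 elsewhere, although the totals of cold libraries lay within the range of the others. With libraries scaled by their totals alone, 84 genes met the rule in place of 244. On that scale each of the 200 genes kept all 3 cold libraries below all 15 others, with a median gap of 1.89 and a lowest gap of 1.23. The gaps were at least 2.09 by the selection, and this change of scale is too small to close such a gap. That order was therefore fixed in advance and is no check. The summed level of the 21 genes of the light-harvesting term of the study's Gene Ontology (GO) annotation, read as a check of leaf tissue, was 16189 to 20398 FPKM (fragments scaled by transcript length and library size) in cold and 26202 to 100578 FPKM outside it. This sum includes 5 of the 200 genes, so part of the difference follows from the selection. As a sum, the 21 genes were abundant in all 18 libraries.

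**Figure D1:**
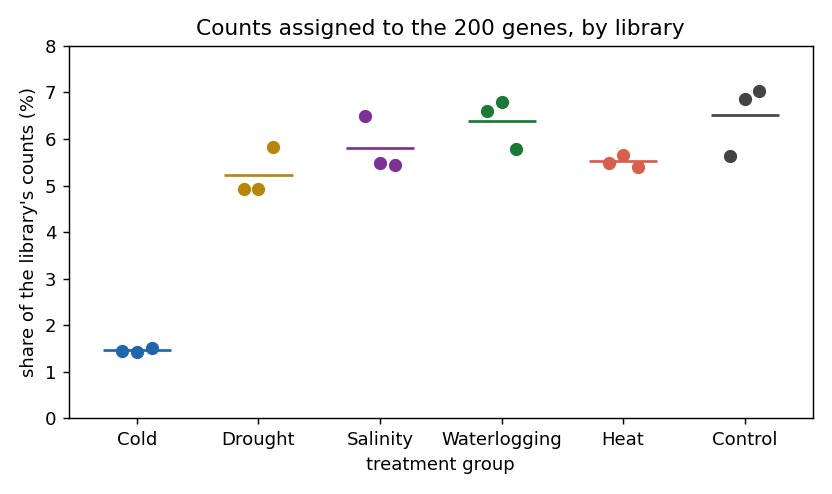
Share of each library's counts (vertical axis, %) that fell on the 200 genes, for 3 libraries in each of 6 treatment groups (horizontal axis), with points for libraries and lines for group means. The cold libraries lie at 1.43% to 1.51% and the other 15 at 4.92% to 7.02%, a separation that follows from the selection of the genes.

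Over the 200 genes, the lowest of the 15 other libraries exceeded the highest cold library by a median of 2.58-fold, with a range of 2.09 to 11.3. The gap was at least 3-fold for 65 genes, at least 4-fold for 22, at least 5-fold for 13 and at least 10-fold for 2. Mean control counts were a median of 4.92-fold above mean cold counts (2.29 to 132), and 27 genes stood at 10-fold or more. In the fit over all genes (edgeR's quasi-likelihood test on counts, where a call needs an at least 2-fold change with a Benjamini-Hochberg adjusted p below 0.05), 12% of the 23830 genes tested were called lower in cold than in control. All 200 genes were among them, which follows from the selection and is a description, and their median log2 fold change was -2.31, against 0.02 over all genes tested. At the edge of the limit, LOC105054949, LOC105044843 and LOC105032107 were the last to be kept, with gaps of 2.09, 2.09 and 2.09. LOC105039831, LOC105033829 and LOC105058198 were the first to be left out, with gaps of 2.11, 2.09 and 2.09.

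**Figure D2:**
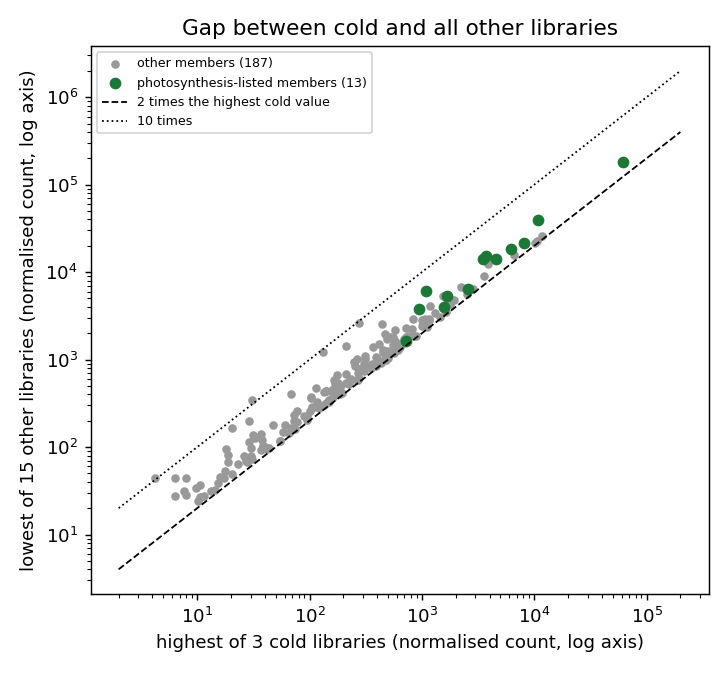
Highest normalised count among 3 cold libraries (horizontal log axis) and lowest among the 15 others (vertical log axis) for each of the 200 genes, with lines at 2 and 10 times the cold value. Points start at the 2-fold line by construction, the widest gap is 11.3-fold, and the green point farthest up is the light-harvesting gene LOC105032174.

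A cold library that the choice had not used could be read by applying the rule to 2 cold libraries and looking at the third. The lowest other value was at least 2 times the third library for 244 of 296 genes (82.4%), 244 of 274 (89.1%) and 244 of 295 (82.7%) with cold replicate 1, 2 and 3 held out. Over these 865 readings, 859 were below the lowest of the other 15 libraries. The readings are not of separate genes, because the same 244 genes that met the full rule were counted in each of the 3 rounds. The 15 other libraries had been used to choose the genes, so this describes how alike the cold replicates were and is not a test.

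The widest gaps belonged mostly to genes with no function given in the sources used here. LOC105042235, first in the ranking, had 30.8, 30.5 and 25.3 normalised counts in cold, against 348, 747 and 1728 as the lowest, median and highest of the other 15 libraries, and 424, 348 and 577 in control. Outside cold it was highest in waterlogging and heat, and it was called higher in both than in control (log2 fold change 1.68 ± 0.21, adjusted p = 1.3e-05 in waterlogging and log2 fold change 1.71 ± 0.21, adjusted p = 9.3e-06 in heat, where ± gives the standard error). LOC105046537 had 257, 195 and 278 in cold, against 2596, 3196 and 8068 outside it, and 3013, 2882 and 4839 in control. LOC105048446 had 88.2, 107 and 132 in cold, against 1227, 1852 and 2693 outside it. These 3 genes were separated by gaps of 11.30, 9.34 and 9.32, and mean control counts were 15.6, 14.7 and 12.9 times mean cold counts. LOC105053088 had 213, 179 and 153 in cold, against 3981, 4761 and 3988 in waterlogging and 1839, 1758 and 1927 in control. LOC105058905 had 68.6, 68.7 and 50.7 in cold, against 1354, 1659 and 1329 in waterlogging and 483, 474 and 554 in control. Both were called higher in waterlogging than in control (log2 fold change 1.19 ± 0.13, adjusted p = 5.5e-06 for LOC105053088 and log2 fold change 1.51 ± 0.24, adjusted p = 9.9e-05 for LOC105058905), and the call of LOC105053088 was lost with library totals. LOC105048446, LOC105058544 and LOC105041288 were closer to flat outside cold, over 2.19-fold, 2.43-fold and 2.67-fold ranges. LOC105058544 had 200.2 to 487 and LOC105041288 had 2536 to 6778 normalised counts over the 15 libraries. None of these 3 genes was called under any other stress.

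LOC105059619 had the widest cold to control difference. It had 4.2, 3.05 and 2.89 normalised counts in cold (6, 4 and 4 reads), against 393, 336 and 615 in control. The mean control value was 132 times the mean cold value, and the low number of reads makes the size of this fold imprecise. The same gene was called lower in drought, with 132, 66.3 and 67 normalised counts (log2 fold change -2.33 ± 0.36, adjusted p = 1.2e-04), and in salinity, with 119, 43.7 and 89.4 (log2 fold change -2.44 ± 0.37, adjusted p = 9.1e-05). It kept 618, 311 and 374 in heat. In 11 of the 200 genes the cold mean was under 10 normalised counts, from 1 to 16 reads in a library, and no gene had 0 reads in a cold library. Other genes with such low values in the cold libraries were LOC105047377 (6.3, 4.58 and 2.89 normalised counts, against 44 to 208 outside cold) and Novel00160 (7, 4.58 and 7.96, against 43.9 to 98.4).

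As a group these were abundant transcripts. Their mean level outside cold had a median of 40.8 FPKM, against 11.1 FPKM over all genes above the floor of 20 normalised counts. 54 of the 200 exceeded 100 FPKM and 7 exceeded 1000 FPKM. The median transcript length used for FPKM was 1522 bases, against 1720 bases over all genes above the floor. The 10 most abundant genes took 56.0% of all reads on the 200, and 8 of these 10 are listed in the study's GO annotation under photosynthesis terms. The others were LOC105054906 (mean 1159.9 FPKM outside cold) and LOC105053974 (933 FPKM), and LOC105053974 is listed under response to heat and unfolded protein binding. Of the 200 genes, 197 have NCBI gene numbers and 3 are gene models added by the study. A match in the NCBI RefSeq table (assembly EG11) was found for 183, of which 174 are protein coding, 5 are miscellaneous RNAs, 2 are pseudogenes and 2 are long non-coding RNAs.

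Outside cold, the group of libraries with the highest mean was waterlogging for 81 genes, drought for 29, heat for 28, salinity for 13 and control for 49. The group with the lowest mean was control for 73 genes, heat for 51, drought for 32, waterlogging for 26 and salinity for 18. The selection bounds these 15 libraries from below only, so it does not fix these orders. It makes a gene that is very low in another stress or in control unlikely to be a member.

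13 of the 200 genes are listed under a photosynthesis term (photosynthesis, photosystem I or II, light harvesting, thylakoid or oxygen-evolving complex). These lists hold genes that the study had itself picked as changed in these libraries, and they are shortened in part, so membership is a label and not independent evidence. In each of the 13 genes the highest mean outside cold was in waterlogging. Summed over the 13, FPKM was 5821 to 6672 in cold, 20556 to 28675 in drought, 29305 to 37783 in salinity, 33409 to 42569 in waterlogging, 24867 to 28334 in heat and 18341 to 29516 in control. All 3 waterlogging libraries lay above all 3 control libraries, while salinity overlapped with the highest control library and drought and heat lay within the control range. Mean control counts were 2.70 to 8.01 times mean cold counts, with a median of 4.81.

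Among the 5 light-harvesting genes, LOC105032174 was the most abundant of all 200, at a mean of 11624 FPKM outside cold and 2958 FPKM in cold. It had 53647, 48611 and 61276 normalised counts in cold, against 182889, 298776 and 340467 in control. It was not called under drought, salinity, waterlogging or heat, where the log2 fold changes were -0.16, 0.40, 0.60 and -0.12. LOC105032321 had 4724, 4788 and 6275 in cold, 110998, 74265 and 74807 in salinity, 100228, 120617 and 93873 in waterlogging and 18219, 39613 and 38548 in control. It was called higher in salinity (log2 fold change 1.41 ± 0.29, adjusted p = 0.001) and in waterlogging (log2 fold change 1.69 ± 0.29, adjusted p = 2.1e-04), and all 6 of those libraries were above all 3 control libraries. LOC105056620 was called higher in both of these stresses, its salinity call being lost without salinity replicate 1 or control replicate 1. It had 82645, 91685 and 75185 in waterlogging, against 21767, 38615 and 39484 in control (log2 fold change 1.31 ± 0.25, adjusted p = 6.2e-04). The other members, LOC105036918 and LOC105037272, were called higher in waterlogging, at log2 fold changes of 1.35 and 1.68, and fell short of 2-fold in salinity, at 0.91 and 0.90.

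LOC105033414 and LOC105052408 are listed under the oxygen-evolving complex of photosystem II, which oxidises water. They were the only 2 members among the 12 listed genes of that term. In 3 of the 12 all cold libraries lay below all control libraries. The median ratio of control mean to cold mean over the 12 was 0.78, so most of this list was not lower in cold. LOC105033414 had 9798, 10761 and 10783 normalised counts in cold, 127819, 103260.0 and 73668 in waterlogging and 38977, 43009.5 and 48763 in control. LOC105052408 had 3499, 3251 and 3004 in cold, 63524, 67866 and 44529 in waterlogging and 14193, 19549 and 25394 in control. Both were called higher in waterlogging (log2 fold change 1.21 ± 0.21, adjusted p = 2.3e-04 for LOC105033414 and log2 fold change 1.56 ± 0.26, adjusted p = 1.9e-04 for LOC105052408). LOC105046935, listed under photosystem II, had the widest cold to control difference of the 13, with 1086, 1022 and 998 in cold and 6058, 7935 and 10889 in control. LOC105032043, also of the photosystem II list, had 3720.1, 3566 and 3529 in cold and 15372, 24151 and 24859.9 in control. Neither was called under another stress. The thylakoid-listed LOC105046717 was the one member of the 13 called higher in drought, with 15348, 13802 and 16063 in drought, against 6489, 7708 and 6528 in control (log2 fold change 1.12 ± 0.15, adjusted p = 3.1e-05), a call that library totals ended.

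**Figure D3:**
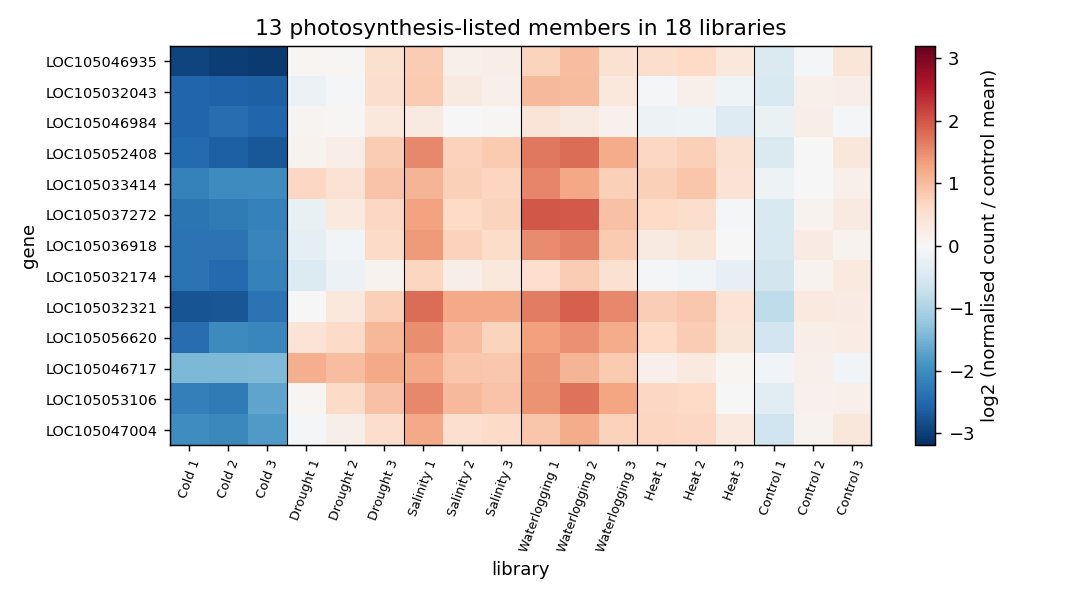
Normalised counts of the 13 photosynthesis-listed genes (rows) in 18 libraries (columns, grouped by treatment), as log2 of the ratio to the gene's control mean, with blue for lower and red for higher values. Cold columns are blue in every row, the waterlogging group has the highest mean in each row, and control replicate 1 is the lowest control in each row.

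Over the 4 other stresses, 8 of these 13 genes were called higher in waterlogging than in control, 4 in salinity, 1 in drought and 0 in heat (edgeR and DESeq2 gave the same counts). At an unadjusted p under 0.05, 12 of the 13 were higher in waterlogging, 9 in salinity, 4 in drought and 6 in heat. By either tool, or at that unadjusted p, 0 of the 13 were lower in any of the 4. Over all genes tested, 12.1% were called higher in waterlogging and 10.5% in salinity. Those shares are for calls at the adjusted p with at least a 2-fold change. No share of all genes was taken at the unadjusted p, so the counts at that threshold have no background beside them. The 13 genes come from lists that the study had picked as changed in these same libraries. A larger share of calls among them is thus no independent result. The waterlogging count was 7 to 10 when single libraries were left out, and 4 with libraries scaled by their totals. The salinity count was 1 to 7 when single libraries were left out (1 without salinity replicate 1, 2 without control replicate 1 and 7 without salinity replicate 2), and 1 with library totals. Control replicate 1 was the lowest of the 15 libraries outside cold for 20 of the 21 light-harvesting genes in the annotation, and its part in these calls was not tested beyond leaving it out.

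The 21 light-harvesting genes were not all members. In 15 of them all 3 cold libraries lay below all 15 others, and 14 had a control mean at least 2 times the cold mean, but only 5 kept a 2-fold gap to the lowest other library. Without control replicate 1, 12 of the 21 would have had that gap. The other 16 genes thus include some with a cold difference of similar direction that the rule did not keep. LOC105058558, LOC105058393 and LOC105032432, with gaps of 1.75, 1.51 and 1.46, came nearest to it. They were picked out after their values were seen.

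Under drought, 20 of the 200 genes were called higher and 20 lower than in control, at shares of 10.7% and 6.93% over all genes tested. Salinity had 23 higher and 18 lower, against 10.5% and 4.91% of all genes. Waterlogging had 42 higher and 19 lower, against 12.1% and 7.53%, and heat had 13 higher and 20 lower, against 11.5% and 8.66%. The share of members called higher was thus 10% in drought, 11.5% in salinity, 21% in waterlogging and 6.5% in heat, and the share called lower was 10%, 9%, 9.5% and 10%. Among genes above the floor of 20 normalised counts, which is the pool the 200 came from, 9.75% were called higher and 4.81% lower in drought, 9.48% and 3.56% in salinity, 11.6% and 5.27% in waterlogging, and 9.33% and 7.24% in heat. The median log2 fold change of the 200 was 0.12 in drought, 0.17 in salinity, 0.31 in waterlogging and -0.01 in heat. Over all genes tested it was -0.05, -0.04, -0.05 and 0.00. Scaled by library totals, which shifts the median of all genes to -0.33 in drought, -0.36 in salinity, -0.46 in waterlogging and -0.14 in heat, 13 genes were called higher and 27 lower in drought, 11 and 32 in salinity, 22 and 37 in waterlogging and 12 and 25 in heat. Over all genes 7.91% were then called higher and 12.1% lower in drought, 7.2% and 11.5% in salinity, 7.28% and 17.9% in waterlogging and 9.31% and 11.3% in heat. On that scale lower calls thus outnumbered higher ones in all 4 stresses. Without salinity replicate 1, 15 genes were called higher in salinity in place of 23. The 4 contrasts share the 3 control libraries.

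**Figure D4:**
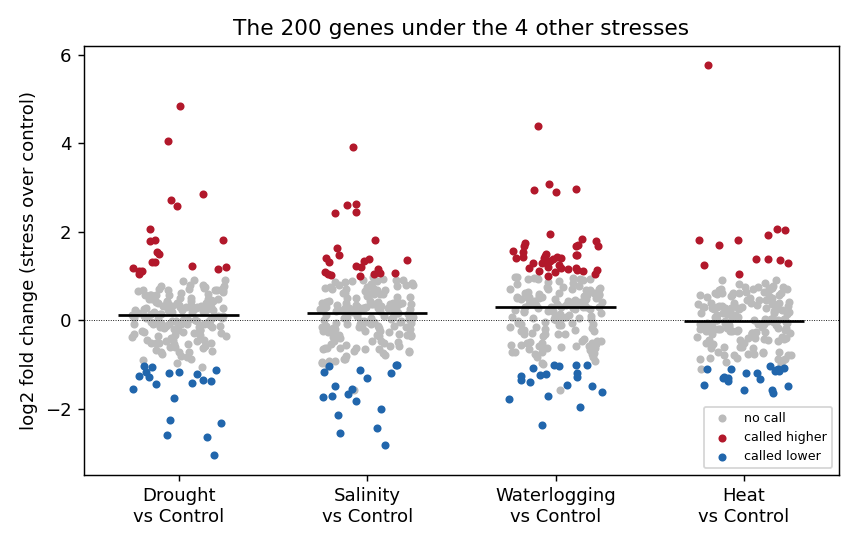
Log2 fold changes (vertical axis, stress over control) of the 200 genes in 4 stresses, with each point a gene, red and blue for genes called higher and lower, grey for no call, and black lines at the medians. The cloud lies highest in waterlogging (median 0.31) and is centred near 0 in heat (-0.01).

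No call was made for 115 of the 200 genes under any of the 4 stresses. 50 were called higher in at least 1 stress and lower in none, 35 were called lower in at least 1 and higher in none, and no gene was called in both directions. 4 genes were called higher and 5 were called lower in all 4. These patterns were not counted over all genes tested, so they cannot be read as particular to the 200. The 4 contrasts share the same control libraries, so calls in the same direction are not independent.

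The genes called higher in all 4 stresses were LOC105034087, LOC105039584, LOC105052113 and Novel00406. LOC105039584 is listed under trehalose biosynthesis and trehalose-phosphatase activity, the step that removes phosphate from trehalose 6-phosphate, a sugar signal in plants. It was the only member among the 12 listed genes of trehalose biosynthesis, whose median ratio of control mean to cold mean was 0.86. It had 361, 336 and 251 normalised counts in cold, 6968, 6063 and 6831 in drought, 5392, 2049 and 3338 in salinity, 2444, 4031 and 3491 in waterlogging, 1869.7, 2347 and 2898 in heat and 910.4, 902 and 1192 in control. Every stressed library outside cold was above every control library, and every cold library below. The highest log2 fold change was in drought (log2 fold change 2.72 ± 0.30, adjusted p = 4.4e-06). Novel00406 had 9.1, 7.63 and 10.1 in cold, 488, 534 and 674 in drought, 694, 315 and 552 in salinity and 42.9, 33.2 and 24.3 in control (log2 fold change 4.07 ± 0.33, adjusted p = 2.9e-07 in drought and log2 fold change 3.93 ± 0.33, adjusted p = 6.6e-07 in salinity). LOC105034087 had 33.6, 29 and 37.6 in cold, 1375, 1186 and 618 in waterlogging and 119, 125 and 157 in control (log2 fold change 2.97 ± 0.26, adjusted p = 8.1e-07 in waterlogging). LOC105052113 was highest in heat (log2 fold change 2.03 ± 0.28, adjusted p = 2.5e-05), and its call in waterlogging (log2 fold change 1.01) was lost with library totals, the replicate block, a separate fit for waterlogging and control, and without waterlogging replicate 1, control replicate 1 or control replicate 2. The salinity calls of LOC105034087 and LOC105052113 were lost with library totals.

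LOC105058308 varied most outside cold, over a 66-fold range. It had 310.1, 308 and 156 normalised counts in cold, 38807, 27106 and 29328 in drought, 8631, 5811 and 5913 in salinity, 2459.7, 1548 and 2111 in waterlogging, 53179.9, 66653 and 60058 in heat and 1151, 1010.1 and 1138 in control. It was called higher in heat (log2 fold change 5.77 ± 0.31, adjusted p = 1.6e-09), drought (log2 fold change 4.85 ± 0.29, adjusted p = 2.6e-08) and salinity (log2 fold change 2.60 ± 0.27, adjusted p = 3.2e-06), and was not called in waterlogging because its log2 fold change was 0.88. LOC105033878 was the member with the highest log2 fold change in waterlogging, with 793, 578 and 1194 in waterlogging, against 45.8, 46.8 and 28.1 in control (log2 fold change 4.39 ± 0.42, adjusted p = 1.4e-06). It rested on 11, 1 and 11 reads in cold. LOC105040518 had 399.9, 413 and 415 in drought, 598, 236 and 453 in salinity and 277, 694 and 612 in waterlogging, against 93.4, 52.7 and 57.2 in control. LOC105050382 had 664, 969 and 889 in drought and 1225, 953 and 749 in waterlogging, against 124, 126 and 94.1 in control. Both were called higher in drought, salinity and waterlogging, with log2 fold changes of 2.59, 2.63 and 2.94 for LOC105040518 and 2.87, 2.45 and 3.07 for LOC105050382.

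**Figure D5:**
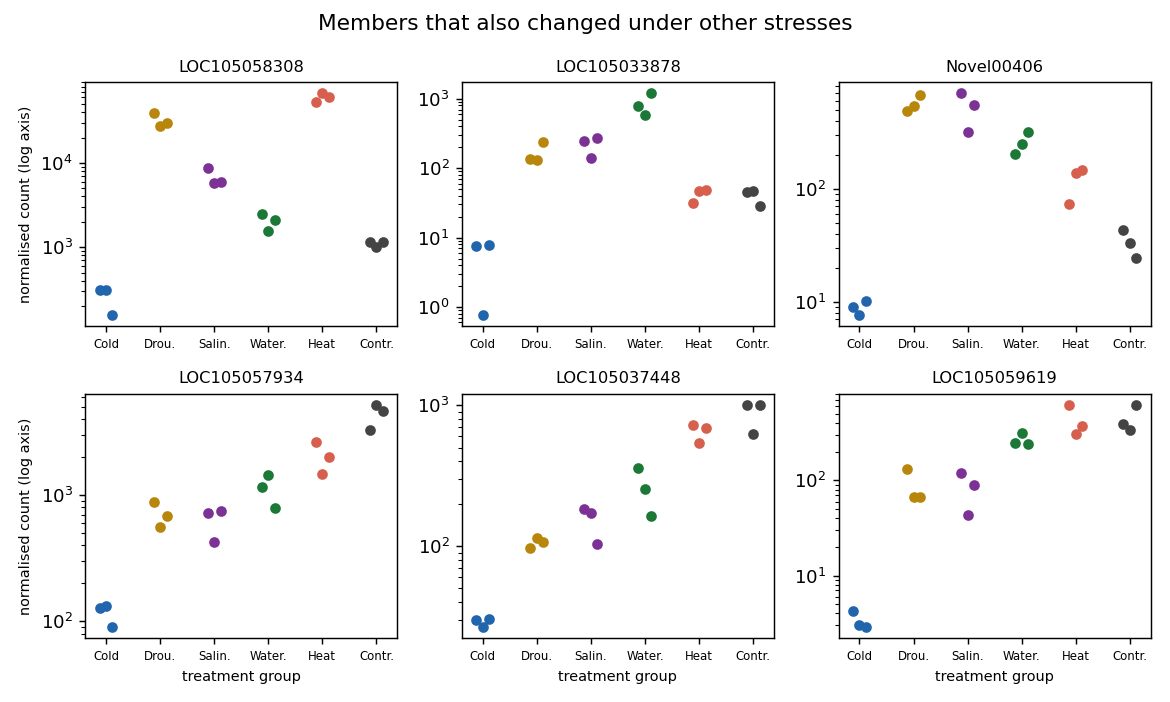
Normalised counts (vertical log axis) of 6 members in 18 libraries, by treatment group (horizontal axis), with each point a library. The upper row shows genes called higher in other stresses and the lower row genes called lower in other stresses, and the cold libraries are the lowest in every panel.

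The genes called lower in all 4 stresses were LOC105045502, LOC105054906, LOC105055556, LOC105057934 and LOC105060695, and in each the cold libraries were lower still, which the selection requires. LOC105054906 had 8953, 8847 and 10689 normalised counts in cold, 27051, 22398 and 24201 in drought, 28313, 24409 and 26539.7 in salinity, 44674, 32250.2 and 30538 in waterlogging, 34044, 35216 and 29882 in heat and 87914, 86688 and 73820.0 in control. All 12 libraries of the 4 stresses were below all 3 control libraries and above all 3 cold libraries. LOC105057934 had 127, 134 and 90.5 in cold, 889.6, 558 and 688 in drought, 728, 423 and 757 in salinity and 3320.4, 5192 and 4695 in control (log2 fold change -2.81 ± 0.30, adjusted p = 4.5e-06 in salinity). LOC105045502 had its lowest log2 fold change in waterlogging (log2 fold change -2.37 ± 0.26, adjusted p = 4.2e-06), with 759, 603 and 442 in waterlogging, against 2655, 3145 and 3421 in control. LOC105055556 had its lowest in salinity (log2 fold change -1.73 ± 0.22, adjusted p = 1.9e-05). The drought call of LOC105055556 was lost without drought replicate 2, and the heat call of LOC105057934 without heat replicate 2 or control replicate 2. LOC105060695, named for being called in all 4, had log2 fold changes between -1.21 and -1.02.

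Other genes were lower under part of the stresses. LOC105037448 had 30.1, 26.7 and 30.4 in cold, 97.4, 114 and 107 in drought, 184, 171 and 104 in salinity, 356, 256 and 163 in waterlogging, 724, 540.1 and 694 in heat and 1003, 621 and 1002 in control. It was called lower in drought (log2 fold change -3.05 ± 0.27, adjusted p = 6.3e-07), salinity and waterlogging, and not in heat. LOC105036555 showed the same calls, with 181, 137 and 168 in cold, 607, 454 and 667 in drought, 2869, 2013 and 2335 in heat and 3989, 2834 and 3616 in control. LOC105037916, listed under an oxidoreductase term, was called lower in drought and salinity, at log2 fold changes of -2.26 and -2.14, but its control libraries ranged between 285 and 927, and its waterlogging call was lost without control replicate 1, waterlogging replicate 2 or waterlogging replicate 3. LOC105045183, which the RefSeq table gives the symbol DRM, was called lower in waterlogging (log2 fold change -1.72 ± 0.15, adjusted p = 8.2e-07) and salinity, with 575, 529 and 475 in cold, 2557, 2213 and 2188 in waterlogging and 6610.2, 7349 and 8751 in control.

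In heat, LOC105053974, listed under response to heat and unfolded protein binding, was called lower than in control. It was the only member among the 26 listed genes of unfolded protein binding, whose median ratio of control mean to cold mean was 0.74. It was also the only one among the 12 of response to heat (median ratio 0.83). It had 6217, 6652 and 4989 normalised counts in cold, 15513, 16079.8 and 18811 in heat and 38939.7, 54229.5 and 45718 in control (log2 fold change -1.46 ± 0.20, adjusted p = 2.2e-05 in heat). LOC105033884 was called lower in heat (log2 fold change -1.57 ± 0.22, adjusted p = 3.5e-05) and drought (log2 fold change -1.45 ± 0.22, adjusted p = 9.6e-05), and LOC105044843 was called lower in heat (log2 fold change -1.49 ± 0.12, adjusted p = 1.2e-07), with a log2 fold change short of the 2-fold limit in waterlogging (-0.97). LOC105055645, listed under channel activity, was called higher in heat (log2 fold change 2.07 ± 0.27, adjusted p = 1.6e-05), waterlogging and salinity, with 109.9, 170.1 and 103 in cold, 2896, 3306 and 2772 in heat and 541, 721 and 872 in control. Its salinity call was lost with library totals and without salinity replicate 1 or control replicate 1. LOC105040218, for which no function was at hand, was called higher in heat (log2 fold change 1.93 ± 0.27, adjusted p = 2.9e-05) and, except with library totals, in waterlogging.

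The steadiest member outside cold was LOC105046548, singled out after its values were seen. It had 1009, 1019.9 and 964 in cold and 2628 to 3432 over the 15 other libraries, a 1.31-fold range. Direct neighbours in assembly EG11 were 3 pairs of members, LOC105055418 with LOC105055340 on chromosome 2, LOC105034097 with LOC105034087 on chromosome 5, and LOC105034285 with LOC105034286 on chromosome 8. Neighbouring genes can share reads where they overlap, which was not tested.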

How the data were processed

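Leaf RNA of 18 samples (6 groups of 3) was sequenced by the authors with NEBNext Ultra libraries on a HiSeq2000. Reads were aligned to the oil palm genome with TopHat2, allowing 2 mismatches, and the deposited counts per gene were made by the authors with HTSeq, with no strand setting stated. Without that setting, overlapping and antisense genes cannot be told apart. How reads that fit several near-identical gene copies were counted was not stated either. The authors also deposited FPKM values (called RPKM in a note with the files), and these describe levels only.

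The count tables were joined by gene, with 0 columns of per-sample values left unmapped. Median-of-ratios size factors came from 22747 genes with no 0 in 18 libraries. The rule and all lists were chosen with earlier results of these data known. The labels call the replicates biological, and no pair had counts alike within sampling noise. Every same-numbered pair deviated together, at a correlation over 0.1, for cold with control (0.163, 0.271 and 0.113) but for none of the other 4 stresses. In drought, pairs 1 and 3 did (0.395 and 0.233) and pair 2 did not (0.006).

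Stress and control were compared with edgeR 4.0.16 (quasi-likelihood test, TMM scaling, low-count filter, 1 coefficient per group, 12 residual degrees of freedom) over 23830 genes in R 4.3.3. Cold against control was fitted with the rest, and its values for the members are a description with no p, since the rule used them. In addition, the rule bounds the control libraries and the libraries of the other stresses from below alike, so it limits how low either side of these contrasts can be. Genes named in the text are the 20 with the widest gap, the 10 most abundant, 5 per stress and direction with the largest called change, up to 4 per GO list, and 3 on each side of the limit of 200, except where said. Simulated data with known changes were used to check the test. Alternatives were other scaling (library totals, DESeq2 size factors), no filter, DESeq2 1.42.0, separate fits, a replicate block, adjusted p alone, other rule thresholds and each library left out. Library totals of 14839345 to 22126971 counts set the precision. Gene descriptions, promoters, motifs and proteins were not analysed here. The GO lists came from the study's supplement, and 19 rows that repeat another term's genes were left out.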

Additional observations from a re-analysis of the deposited data

How the results depend on the processing

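The number of genes that met the rule was 244, 84 with library totals, 627 with a 1.5-fold gap and 65 with a 3-fold gap, and 244 to 295 with single libraries left out. Leaving out a library can, apart from small shifts in scaling, only widen a gap, so that these counts were bound to stay near or above 244. The share of held-out cold readings past the 2-fold gap was 84.6%, 77.5% with library totals and 82.4% to 89.1% by replicate. With adjusted p alone, the members called higher and lower were 52 and 36 in drought, 57 and 41 in salinity, 88 and 41 in waterlogging, and 46 and 43 in heat. With library totals they were 13 and 27 in drought, 11 and 32 in salinity, 22 and 37 in waterlogging, and 12 and 25 in heat, and the cold median was -2.02 in place of -2.31. Leaving out single libraries gave 19 to 22 higher and 18 to 21 lower in drought, 15 (without salinity replicate 1) to 30 higher and 16 to 22 lower in salinity, 35 to 52 higher and 16 to 21 lower in waterlogging, and 13 to 15 higher and 19 to 22 lower in heat. The cold median then ran from -2.35 to -2.26. The cause of these differences was not tested. DESeq2, its size factors, no filter and separate fits kept every count within 1.5 times. The correlation of deviations was over 0.1 in 5 of 15 same-numbered pairs of a stress and a control sample (range -0.358 to 0.395). Of these, 3 were cold and the others were drought pairs 1 and 3 (0.395 and 0.233). No salinity, waterlogging or heat pair was over 0.1. The labels give only a replicate number, so whether drought and control samples were paired is not known. The replicate block gave a cold median of -2.32, 20 higher and 20 lower in drought, 22 and 19 in salinity, 41 and 19 in waterlogging, and 13 and 20 in heat. A stress sample correlated best with the control of its own number in 6 of 15 cases. Of the 81 calls of named genes, none changed direction under 24 settings, and 32 of 1944 values were no longer called, 13 of them with library totals. Most of these settings left out a single library, mainly one outside the contrast in question, where a call could hardly change. Many of these genes had also been named for their largest called changes, so the low number of lost calls says little about other genes. Depth limits the 11 genes with 1 to 16 reads in a cold library, whose folds are imprecise. The alternatives for the cold median and the photosynthesis-listed members were chosen after seeing the data.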
